A study of Homo sapiens with 2 samples.

Results

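Cell cycle genes that drive DNA replication and mitosis were examined in A549 cells, a human lung carcinoma line, after TGF-β. Cells without the cytokine (control) were compared with cells given TGF-β at 1 ng/ml, 12 h after its addition, and RNA of each culture was hybridized to 1 Affymetrix array. The sample labels give no harvest time for the control. The genes were taken by symbol from a list of 55, and all 55 had at least 1 probe set bright enough to be kept, out of 12375 genes kept on these arrays. They were split by function into 29 genes of the G1/S transition and replication and 26 genes of G2 and mitosis (G2/M). A549 is 1 established tumour line, and what holds for it need not hold for normal lung epithelium. Each condition had 1 array, so no replicate error, p-value or interval can be given, and every difference below is a description of these arrays whose precision is limited by their number.

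Cells commit to division when cyclin-dependent kinases inactivate the retinoblastoma proteins and free the E2F transcription factors, which switch on the genes for origin licensing, the MCM helicase, the polymerases and the supply of deoxynucleotides. Later in the cycle a further wave of genes, governed by the MuvB complexes with MYBL2 and FOXM1, supplies cyclin B, the mitotic kinases, the spindle and the kinetochore. TGF-β is known to hold epithelial cells in G1, in part through inhibitors of cyclin-dependent kinases, and many carcinoma lines have lost some of that response. The paper that reported these arrays describes its A549 cells as resistant to growth inhibition by TGF-β. Growth and cycle phase were not measured on the arrays.

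The values are MAS5 signals, intensities on a linear scale, and a fold is the signal of the same probe set with TGF-β over that in the control. A gene was represented by its brightest probe set. With TGF-β, 51 of the 55 genes had a lower signal and 4 a higher one, while 54.6% of all 12375 genes were lower. The differences were small. The median gene of the 55 kept 85.5% of its control signal (log2 fold change -0.23), beside 97.7% for the median of all genes (-0.03). Only E2F2 was lower by 2-fold, a size that 2.96% of all genes passed in that direction, and none was higher by 2-fold, which 3.94% of all genes were. At 1.5-fold, 6 members were lower, that is E2F2, CDT1, E2F1, CDC45, MCM2 and CDC6, and none was higher, against 9.08% and 9.16% of all genes. E2F2 was under 2-fold with an offset of 50 and with median or loess scaling. Median scaling left 48 members lower, beside 48.2% of all genes, and loess 49, beside 50.9%. When the most changed probe set stood for each gene, 14 members were lower by 1.5-fold, and so were 14.9% of all genes. RNA came from whole cultures, so fewer cells in a cycle phase and less RNA per cell cannot be told apart.

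The lower signals were larger in size among the G1/S genes than among the G2/M genes, though the difference between the classes cannot be tested with 1 array each. The division was made by hand from known functions, but with earlier results of these data known, so the contrast is only a description. Of 29 G1/S genes, 28 were lower, with a median log2 fold change of -0.35, so the median gene kept 78.7% of its control signal. By the brightest probe set, all 6 genes past 1.5-fold belonged to this class. Of 26 G2/M genes, 23 were lower, with a median of -0.17 and 88.6% of the control signal kept, and all 26 stayed within 1.5-fold by the brightest probe set. By the most changed probe set 4 of them, MAD2L1, TOP2A, AURKB and BIRC5, were also lower by 1.5-fold, and MAD2L1 was so without probe sets that share targets. The spread of log2 fold changes among the 500 probe sets nearest in brightness gives a scale for these sizes, although it says nothing of the spread between cultures. Lower than the median of such neighbours by more than that spread were 23 of the 29 G1/S genes and 8 of the 26 G2/M genes, compared with 17.1% of all genes. The members are bright genes, so the same counts were taken over the 8359 genes whose mean signals lay in the members' range, 243 to 15168. Of those genes 55.7% were lower, 0.957% were lower and 2.82% higher by 2-fold, 4.53% were lower and 6.83% higher by 1.5-fold, and 16.4% were lower by more than the spread.

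**Figure D1:**
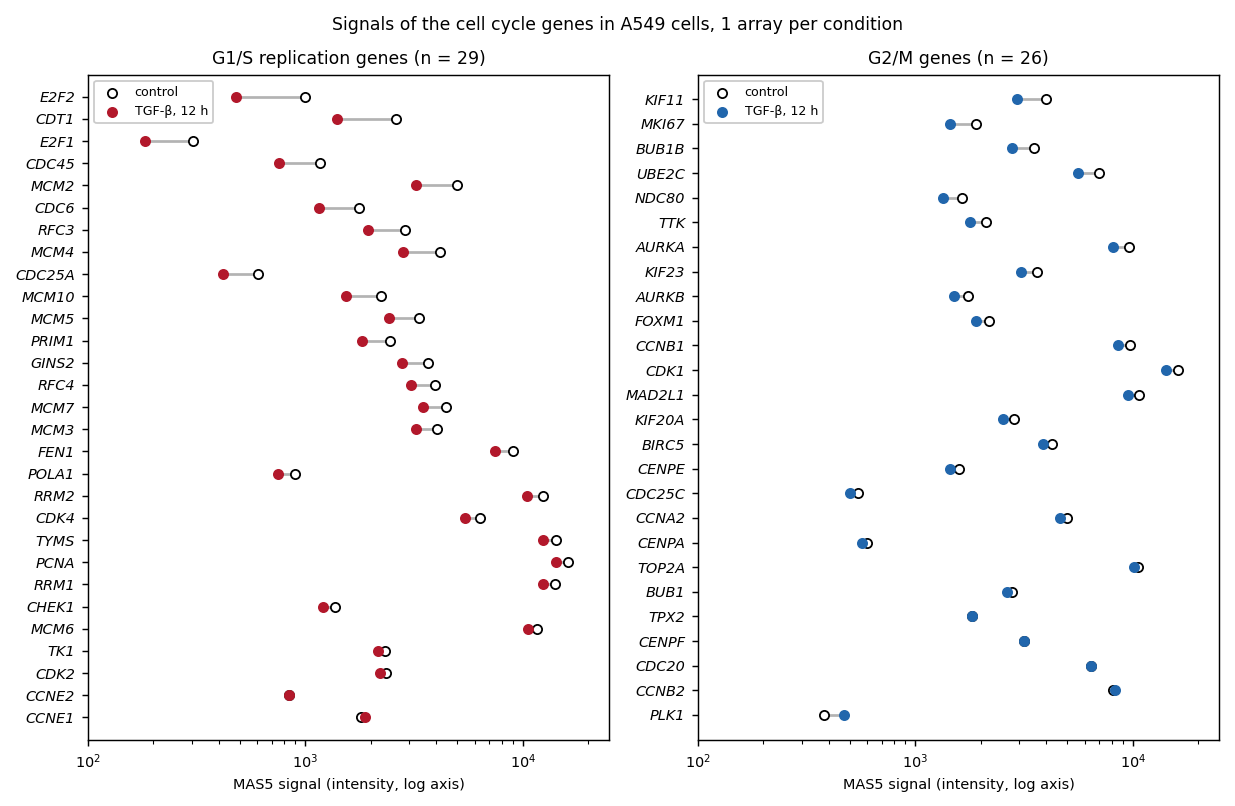
MAS5 signals (x axis, intensity on a log axis) of the 29 G1/S replication genes (left) and the 26 G2/M genes (right) without TGF-β (open points) and after 12 h with TGF-β (filled points), each point 1 array, ordered from the lowest ratio at the top. Filled points lie left of open points in 28 of the 29 rows on the left and 23 of the 26 on the right, and the gap is widest for E2F2, from 993 to 481.

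The helicase that unwinds DNA at origins, with the factors that load and fire it, had the lowest median of any role, and each of its 11 genes was lower. The median gene kept 69.3% of its control signal. CDT1, which loads the MCM ring on origins, went from 2619 to 1399 with TGF-β, 53.4% of the control, and its other probe set went from 295 to 156. CDC6, the partner of CDT1 in loading, read 1770 and 1155 on its brightest probe set and 1586 and 1163 on the other. CDC45, which joins the MCM ring to form the active helicase and has a single probe set, read 1172 and 753. These 3 loading and firing factors were thus all lower on every probe set they had.

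Among the subunits of the ring, MCM2 went from 4955 to 3228, or 65.1% of the control. MCM4 read 4159 and 2822 on the brightest of its 4 kept probe sets, and MCM5 read 3319 and 2428. The others were nearer to their control levels, with 78.7% kept for MCM7, 80.2% for MCM3 and 90.2% for MCM6. MCM6 depended on the probe set, since the brightest went from 11648 to 10508 while a dimmer one went from 526 to 299. MCM10, which binds the helicase at its activation, was lower on 3 probe sets, from 2217 to 1537 on the brightest and from 1928 to 1080 and 1505 to 891 on the others. GINS2, a subunit of the active helicase, kept 76.5% of its signal, from 3644 to 2788, whereas a much dimmer probe set read 128 and 138.

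At the replication fork all 6 genes were lower, with a median of 79.8% of the control. RFC3 and RFC4, subunits of the loader that places the PCNA clamp, went from 2859 to 1938 and from 3963 to 3055. All 3 kept probe sets of RFC3 were lower, with log2 fold changes from -0.56 to -0.44. PRIM1, which makes the RNA primers, went from 2462 to 1812, and POLA1, the catalytic subunit of the polymerase that extends them, from 895 to 747. PCNA, the sliding clamp, kept 87.6% of its signal (16146 and 14139), and FEN1, which trims Okazaki fragments, 82.6% (9031 and 7456). The clamp itself therefore had a ratio nearer to 1 than RFC3 and RFC4. Of the loader subunits that are not members, RFC2 read 63.1%, RFC1 87.1% and RFC5 116% of the control.

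Genes for the supply of deoxynucleotides were all lower, and the median of the 4 was 87.7% of the control. RRM1 and RRM2, the subunits of ribonucleotide reductase, kept 87.9% and 85.1% of their signals. TYMS, which makes thymidylate, went from 14186 to 12409, and TK1, thymidine kinase, from 2320 to 2146. A further TK1 probe set of almost equal brightness went from 2361 to 1897, so TK1 kept 92.5% by its brightest probe set and 80.4% by the other.

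The regulators of S phase entry parted. E2F2 and E2F1, activators of the replication genes, were lower, while the cyclins E, which drive entry into S phase with CDK2, stayed near their control signals, CCNE1 slightly above and CCNE2 slightly below. E2F2 went from 993 to 481, 2.06-fold lower, and its second kept probe set read 76.8 and 25.5, the latter at background. E2F1 read 304 and 183 on its brightest probe set, 1.66-fold lower, but 111 and 153 on the other, so its direction depended on the probe set. CDC25A, the phosphatase that activates CDK2, read 605 and 418, and on further probe sets 311 and 177, then 79.2 and 80.0. CCNE1 read 1795 and 1874, and CCNE2 read 845 and 841. CDK2 itself kept 93.6% and CDK4, the kinase of D-type cyclins, 85.5% of the control signal. CHEK1, the kinase of the replication checkpoint, kept 88.0% on its brightest probe set (1365 and 1201), whereas 2 probe sets of similar brightness went from 1362 to 955 and from 1223 to 846. The sign of CCNE2 turned when the arrays were scaled to equal medians or by loess, as its ratio was near 1.

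Genes of G2 and mitosis were lower by less. Of the engine of mitotic entry, CDK1, the kinase partner of cyclin B, went from 16138 to 14198, and its 4 probe sets were all lower, with log2 fold changes from -0.34 to -0.17. CCNB1 kept 87.8% of its signal (9741 and 8553), CCNA2 92.7% (4986 and 4623) and CDC25C, the phosphatase that activates CDK1, 91.7% (544 and 499). CCNB2 read 8071 and 8267, slightly higher, although a dim probe set was lower. FOXM1, the transcription factor of the late wave, went from 2183 to 1903. By the brightest probe set, the genes named in this paragraph thus kept between 87.2% and 102% of their control signals.

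The largest differences in this class were those of KIF11 and MKI67. KIF11, the motor that pushes spindle poles apart, went from 3994 to 2938, 73.5% of the control. MKI67, the proliferation marker Ki-67 that coats mitotic chromosomes, went from 1910 to 1446, 75.7% of the control, and all 4 of its probe sets were lower. Of the other motors, KIF23 and KIF20A, which act at cytokinesis, kept 84.8% and 88.9%. TOP2A, the topoisomerase that untangles chromosomes, read 10595 and 10101.

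In the spindle checkpoint, BUB1B went from 3528 to 2790, TTK from 2113 to 1779 and MAD2L1 from 10700 to 9454. The first 2 have a single probe set. MAD2L1 was lower on all 3, and its dimmest went from 507 to 307. BUB1, a kinase of the same checkpoint, kept 95.6%. UBE2C, the conjugating enzyme of the anaphase-promoting complex, went from 6996 to 5598, whereas CDC20, the activator of that complex, read 6405 and 6426. CDC20 was higher by the deposited values and with median scaling and lower with quantile or loess scaling.

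Of the mitotic kinases, AURKA and AURKB kept 84.8% and 85.5% of their signals. TPX2, the activator of Aurora A, read 1822 and 1813, and BIRC5, the survivin subunit of the Aurora B complex, 4264 and 3868. PLK1, which acts from mitotic entry to cytokinesis, was the member with the largest difference upward, from 380 to 472, 1.24-fold higher on its only probe set. At the kinetochore, NDC80, which binds microtubules, went from 1642 to 1341, and CENPE, a motor, from 1592 to 1444, while CENPA, the centromeric histone, went from 602 to 571. CENPF read 3164 and 3150 on its brightest probe set, 771 and 562 on the next and 132 and 114 on the dimmest. The signs of TPX2 and CENPF turned under some of the scalings, since both brightest probe sets differed by under 1%.

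Agreement among probe sets of a gene shows how far a value depends on the probes, although all of them read the same RNA. The 55 genes had 117 probe sets, of which 105 were bright enough to be kept. Of these 105, 96 were lower with TGF-β and 9 higher, against 54.3% lower among the 23076 kept probe sets with 1 symbol. By 1.5-fold 17 were lower, 13 of G1/S and 4 of G2/M genes, and none was higher, against 9.32% and 9.25%. The 4 of G2/M genes were dimmer probe sets of MAD2L1 (507 and 307), BIRC5 (721 and 478), AURKB (141 and 91.4) and TOP2A, whose signals of 81.6 and 52.3 ended at background. Of 34 genes with more than 1 kept probe set, 28 were lower on all, 6 were mixed and none was higher on all. The same count was not taken over all genes, so how unusual it is cannot be said. The 6 mixed genes were E2F1, CDC25A, GINS2 and CCNE2 of the G1/S class and CCNB2 and BUB1 of the G2/M class. Among kept probe sets the median log2 fold change was -0.44 for G1/S and -0.19 for G2/M. Names of 51 of the 105 mark probes that can bind more than 1 transcript.

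**Figure D2:**
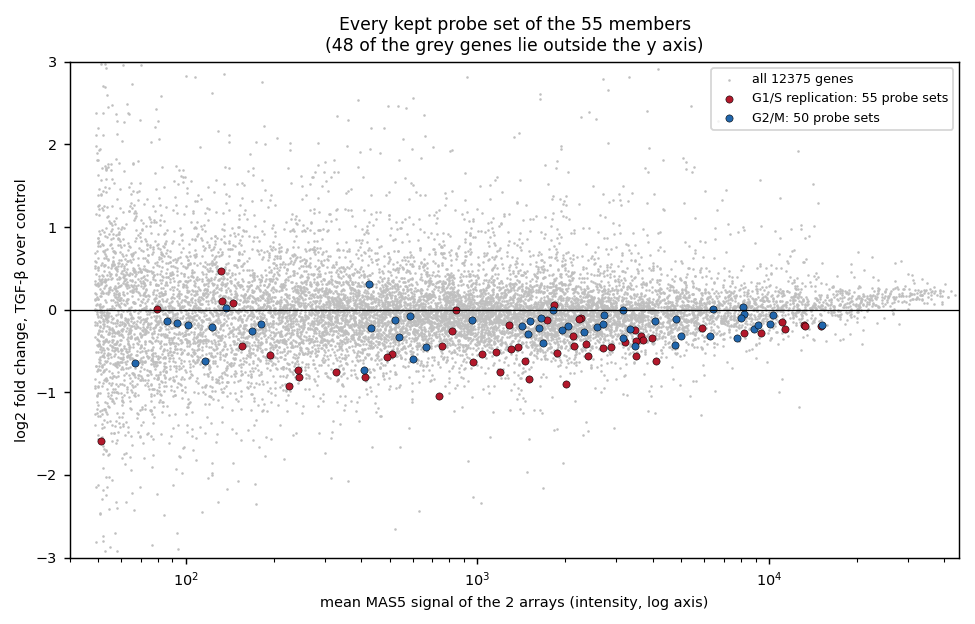
Log2 fold change of TGF-β over control (y axis) against the mean MAS5 signal of the 2 arrays (x axis, intensity on a log axis) for each of the 105 kept probe sets of the members, red for G1/S and blue for G2/M, over all 12375 genes in grey by their brightest probe set. Of the coloured points, 96 lie below 0 and 9 above, and they stay within the grey cloud at low signals.

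Related genes outside the 55 members, listed by function, leaned in the same direction. These lists were also chosen with earlier results of these data known, so they are not an independent check. Of 47 measured further replication genes, 46 were lower, 7 of them by 1.5-fold, and none was higher by 1.5-fold, with a median of 79.8% of the control. EXO1, a nuclease of repair and replication, read 2117 and 1199, and PRIM2, the partner of PRIM1, 629 and 377. RFC5, a further clamp loader subunit, was the exception, at 6618 and 7672. Of 55 measured further mitosis genes, 48 were lower, 2 of them by 1.5-fold, with a median of 85.3%. Over all 12375 genes, 54.6% were lower, 9.08% were lower by 1.5-fold and 9.16% were higher by 1.5-fold. The 2 mitosis genes past 1.5-fold were thus fewer than that share. CCNF, a cyclin that acts as a ubiquitin ligase subunit, went from 604 to 345 and SPC25, a partner of NDC80 at the kinetochore, from 1782 to 1145. Housekeeping genes went slightly the other way, since 16 of 21 were higher, with a median log2 fold change of 0.11 and all 21 within 1.5-fold. That median was 0.03 with quantile and 0.06 with loess scaling, and 8 of the 21 lay below the median of probe sets of like brightness.

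A list of further cell cycle regulators, which were not sorted by place in the pathway, did not lean one way. Of 42 measured, 24 were lower and 18 higher, while 54.6% of all genes were lower. Their median was -0.03, and it became 0.02 when the arrays were scaled to equal medians. At 2-fold, 4 were higher and none lower, against 3.94% and 2.96% of all genes. At 1.5-fold, 5 were higher and 3 lower, against 9.16% and 9.08%. CDKN1A, the p21 inhibitor of cyclin-dependent kinases, went from 1154 to 2792, and GADD45B, a stress-induced regulator of growth, from 751 to 3767. MYCN went from 201 to 613 and CCNG2, an atypical cyclin of arrested cells, from 166 to 451. By contrast CDKN1B, the p27 inhibitor, was lower (3498 and 2258), as was CDC25B, an activating phosphatase (3192 and 1971). E2F5 went from 611 to 406. MYC read 4147 and 4060, and CCND1, a D-type cyclin, 6682 and 9669. CDKN2B, the p15 inhibitor, was at background on both arrays, with 5.46 and 9.56 as its highest signals, so it gives no ratio.

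**Figure D3:**
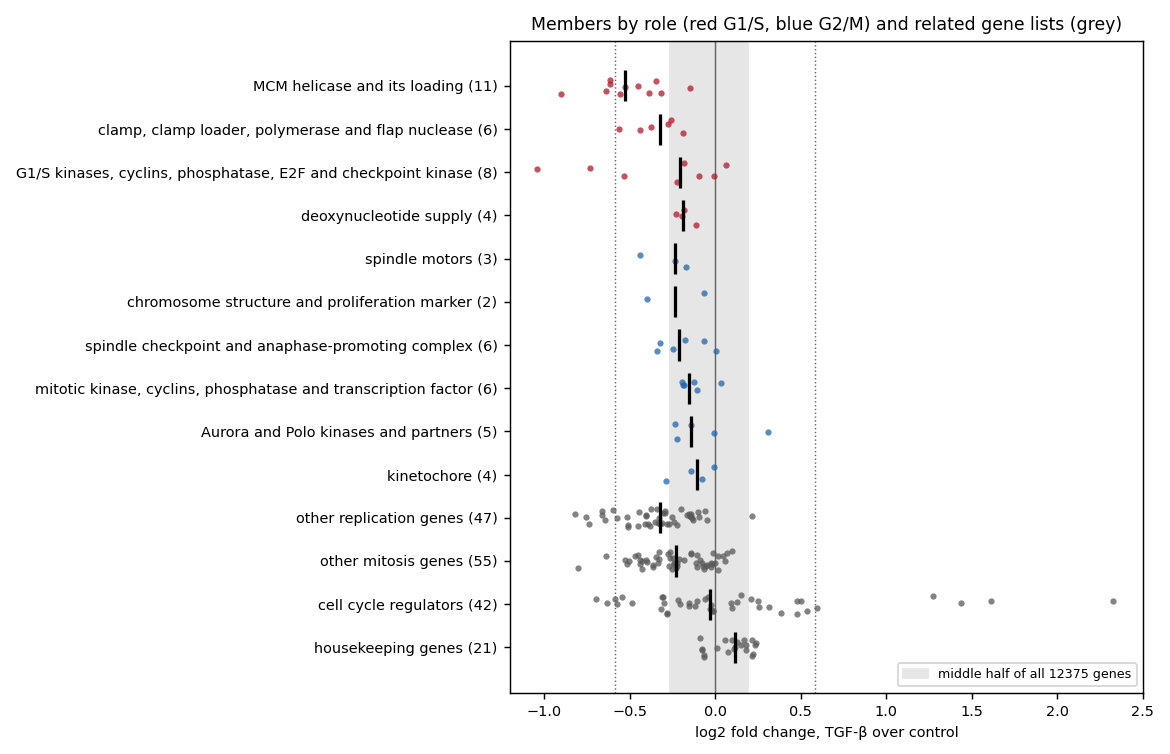
Log2 fold change of TGF-β over control (x axis) for the members by role, red for G1/S and blue for G2/M, and for related gene lists in grey, with the number of genes in brackets. Each point is 1 gene, black bars are medians, the shaded band runs from the 25 to the 75 percentile of all 12375 genes, and dotted lines mark 1.5-fold; the helicase genes lie lowest with a median of -0.53, and housekeeping genes have a median of 0.11.

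The promoters of the members were read for the motifs by which the 2 waves are known to be controlled, since the genes of each class leaned the same way. Windows from 250 bases before to 50 bases after the annotated start were given by RefSeq on GRCh38.p14 for 45 of the 55 genes, and the first listed was used where a gene had several. MCM4, MCM5, CDK2, CCNE2, TTK, UBE2C, BIRC5, AURKA, TPX2 and FOXM1 had none. Searched on both strands were the E2F motif as TTTGGCGC, TTTCCCGC, TTTGCCGC, TTTCGCGC or TTCCCGCC, the cell cycle genes homology region (CHR), bound by MuvB complexes, as TTTGAA, and the NF-Y box as CCAAT. The E2F octamers can overlap each other, and the CHR and CCAAT letters can share bases, as they do in MKI67.

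An E2F match was present in 17 of 25 G1/S windows and 2 of 20 G2/M windows, compared with 8.80% of the 10089 kept genes with a window and 5.57% of all 27305 genes with one. The CHR was present in 1 of 25 G1/S windows and 13 of 20 G2/M windows, against 10.1% of kept genes and 15.4% of all. CCAAT was in 15 of 25 and 16 of 20, against 36.5% and 35.7%. Such a match is a string of letters in a window and not evidence of binding in these cells. Within the G1/S class the 17 genes with an E2F match had a median log2 fold change of -0.39 and the 8 without one -0.23. Among those 8, CDC45, CHEK1, RRM2 and TK1 had further windows that were not searched. Within the G2/M class the 13 genes with a CHR had a median of -0.18 and the 7 without one -0.14, but 10 of the 13 were lower against 7 of the 7. Among those 7, CDC25C and AURKB likewise had windows that were not searched. The 11 G2/M genes with both CHR and CCAAT had a median of -0.08 and the other 9 had -0.17, so the order of the medians turned with the motif counted. Among all kept genes the medians were -0.07 for the 888 with an E2F match and -0.03 for those without. With the cell cycle lists left out, they were -0.05 for the 837 with a match and -0.03 for those without. Outside the members, an E2F match was in 18 of 40 windows of the further replication genes and a CHR in 34 of 50 windows of the further mitosis genes. Those replication genes had medians of -0.38 with an E2F match and -0.31 without. The mitosis genes had -0.26 with a CHR and -0.14 without, and -0.26 with both CHR and CCAAT and -0.22 otherwise.

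The 130 bases before the start are shown, 5′ to 3′ on the strand of the gene, for 4 G1/S genes that hold an E2F match there and were lower with TGF-β, with the match in capitals:
E2F2 (GRCh38.p14, chr1:23531234-23531363, minus strand): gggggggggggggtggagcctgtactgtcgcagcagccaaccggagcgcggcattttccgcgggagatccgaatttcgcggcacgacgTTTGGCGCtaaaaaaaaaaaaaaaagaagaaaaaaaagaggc
CDT1 (GRCh38.p14, chr16:88803659-88803788, plus strand): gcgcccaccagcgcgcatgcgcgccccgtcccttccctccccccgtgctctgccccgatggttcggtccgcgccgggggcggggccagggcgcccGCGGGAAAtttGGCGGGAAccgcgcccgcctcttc
E2F1 (GRCh38.p14, chr20:33686386-33686515, minus strand): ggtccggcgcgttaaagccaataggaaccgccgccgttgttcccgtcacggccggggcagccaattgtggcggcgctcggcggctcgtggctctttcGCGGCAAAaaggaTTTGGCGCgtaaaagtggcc
CDC25A (GRCh38.p14, chr3:48188418-48188547, minus strand): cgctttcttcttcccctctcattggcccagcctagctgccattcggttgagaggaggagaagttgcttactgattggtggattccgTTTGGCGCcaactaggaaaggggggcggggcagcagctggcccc
The match begins at position -42 in E2F2, at -35 and -24 in CDT1, at -33 and -20 in E2F1 and at -44 in CDC25A, counted from the annotated start. These are the genes read above at 48.5%, 53.4%, 60.2% and 69.0% of their control signals by the brightest probe set. A dimmer probe set of E2F1 went from 111 to 153, and 1 of CDC25A from 79.2 to 80.0. The 4 genes are examples, and other G1/S genes hold a match there too. RFC3, for instance, has 1 at -55 and kept 67.8% of its control signal.

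For comparison the same stretch is shown for the G2/M genes with the lowest and the highest ratios among those with a window, KIF11, MKI67, CCNB2 and PLK1, with CHR and CCAAT letters of either strand in capitals:
MKI67 (GRCh38.p14, chr10:128126424-128126553, minus strand): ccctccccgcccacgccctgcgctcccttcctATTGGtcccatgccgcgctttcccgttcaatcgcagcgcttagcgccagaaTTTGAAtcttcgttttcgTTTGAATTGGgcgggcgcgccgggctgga
KIF11 (GRCh38.p14, chr10:92593000-92593129, plus strand): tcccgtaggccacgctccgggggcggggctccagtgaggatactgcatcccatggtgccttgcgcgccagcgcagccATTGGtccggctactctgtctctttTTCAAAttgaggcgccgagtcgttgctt
CCNB2 (GRCh38.p14, chr15:59105016-59105145, plus strand): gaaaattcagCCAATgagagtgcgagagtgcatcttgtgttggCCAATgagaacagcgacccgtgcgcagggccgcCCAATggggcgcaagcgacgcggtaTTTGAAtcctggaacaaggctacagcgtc
PLK1 (GRCh38.p14, chr16:23678759-23678888, plus strand): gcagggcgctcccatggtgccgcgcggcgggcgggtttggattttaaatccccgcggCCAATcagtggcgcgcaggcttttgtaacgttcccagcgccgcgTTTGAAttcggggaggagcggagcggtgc
The CHR nearest the start begins at -29 in MKI67, CCNB2 and PLK1 and at -28 in KIF11. MKI67 and KIF11 read 75.7% and 73.5% of the control and CCNB2 and PLK1 102% and 124%, so genes with a CHR at nearly the same distance from the start lay at both ends of the class. The rest of the arrangement differed, as KIF11 holds the CHR on the strand opposite to the gene, MKI67 holds it at 2 places, and the CCAAT letters differ in number or place.

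**Figure D4:**
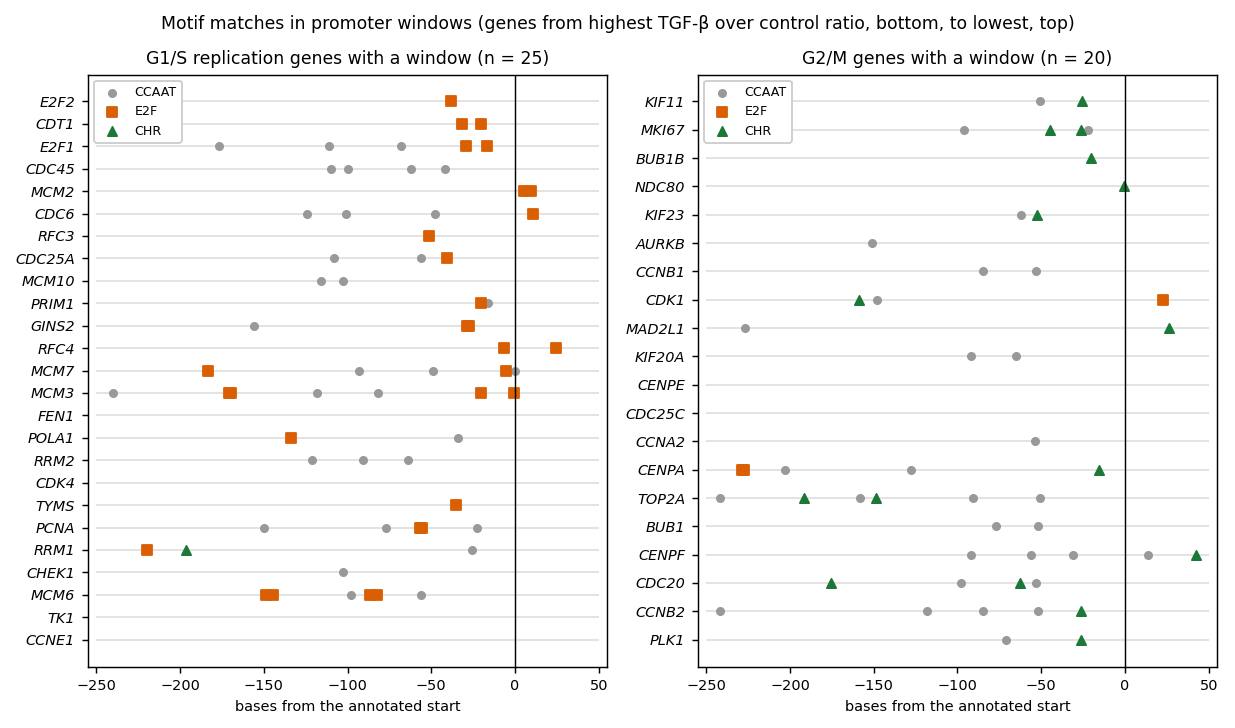
Positions of motif matches (x axis, bases from the annotated start) in the promoter windows of 25 G1/S genes (left) and 20 G2/M genes (right), with genes ordered from the lowest ratio of TGF-β over control at the top. Squares are E2F matches, in 17 rows on the left and 2 on the right, triangles are CHR matches, in 1 row on the left and 13 on the right, and circles are CCAAT matches.

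Both arrays had a trimmed mean signal of 500, which the scaling had fixed, so it cannot show that they were alike. Their median signals were 51.0 without and 49.3 with TGF-β. The cytokine response was visible, with SMAD7, a feedback inhibitor of TGF-β signalling, at 786 and 1620 and PMEPA1, another target, at 5227 and 19834. All 5 epithelial markers were above background on both arrays, with KRT18 at 33810 and 38248, and CDH1, E-cadherin, at 1952 and 846. Of 5 endothelial markers 4 were at background on both arrays, and of 5 fibroblast markers 3 were. Of 5 leukocyte markers 3 had a probe set with 1 symbol, and 1 was at background on both. CD14 (190 and 63.0) and CD3E (48.8 and 74.8) exceeded it on both. The highest signals of the leukocyte, endothelial and fibroblast lists were 190, 56.4 and 82.5 on the control array. After TGF-β they were 74.8, 65.4 and 46.7. The background was the highest of 27 Bacillus subtilis control probe sets, with a level of 45.8 without and 56.6 with TGF-β. Every brightest member probe set exceeded it on both arrays. Of all probe sets, 52.1% exceeded the background without and 47.5% with TGF-β.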

How the data were processed

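RNA of 1 control culture and 1 TGF-β culture of A549 cells was measured on 1 array each. The deposited intensities are linear MAS5 signals, 1 per probe set. The submitters' processing notes name MAS5 without a version, and the scale was set by the authors to a common trimmed mean. Other settings, and any genome build, were not given in the sources used here. The platform annotation assigned 1 symbol to 41091 of 54613 probe sets (controls left out), several to 1801 and none to 11721, and symbols were updated through RefSeq gene identifiers. Probe sets whose mean signal reached 48.7, their median, were kept, and the brightest of them stood for its gene. Folds, medians and counts at 2-fold and 1.5-fold were computed with Python 3.11.15, numpy 2.4.6 and pandas 2.3.3, loess with statsmodels 0.14.6 and plots with matplotlib 3.10.9. For the local spread, the median absolute deviation over the 500 probe sets nearest in mean log2 signal was multiplied by 1.4826. With 1 array per condition no test was run. Members and gene lists were chosen with earlier results of these data known, and so was the division into classes, made by hand from known functions. All members could be named, and of other lists the genes past 2-fold or with the largest differences; not all of those are printed. Alternatives were other filters, floors, scalings and choices of probe set.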

Additional observations from a re-analysis of the deposited data

How the results depend on the processing

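With 1 array per condition, alternatives show dependence on processing only, and the cause of each shift was not tested. With no filter or with a floor, member values could not change, because every brightest member probe set lay above the cutoff and the floors. Counting these settings, the median log2 fold changes stayed below 0 in all 12 alternatives. For the G1/S genes, the G2/M genes and all 55 members in that order, they were -0.30, -0.13 and -0.18 with arrays scaled to equal medians, -0.34, -0.18 and -0.26 with quantile scaling, -0.32, -0.14 and -0.25 with loess, -0.36, -0.19 and -0.25 when the probe sets of a gene were reduced to their median, and -0.44, -0.25 and -0.34 when the most changed probe set stood for the gene. Without probe sets that share targets, which left 42 members, the G1/S and G2/M medians were -0.32 and -0.20. The G1/S median was -0.33 when probe sets under the 75 percentile were dropped and -0.34 with an offset of 50, where the median of all members was -0.22. The member lower by 2-fold, E2F2, was under that size with the offset, median scaling or loess, which gave 0. Members lower by 1.5-fold numbered 14 by the most changed probe set, when 14.9% of all genes passed that size, and between 4 and 6 otherwise. In those other settings the share of all genes ran from 3.90% with the 75 percentile filter to 19.2% with no filter. The members past it were 5 of 54 in the former and 6 of 55 in the latter. Without shared-target probe sets they were 4 of 42, beside 9.84% of all genes. The relation to all genes thus changed with the setting. No alternative gave a member higher by 1.5-fold. Members with a lower signal numbered between 48 and 51 wherever 54 or 55 were measured, and 38 of the 42 without shared-target probe sets. Of all genes, between 48.2% and 56.5% were lower in the former settings and 55.6% in the latter. No paired analysis was possible because each condition had 1 array. Dim probe sets limit E2F1, whose second probe set went the other way.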
